A study of Mus musculus with 6 samples.

Results

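Actin dynamics genes are described here as a set of 41 genes chosen by name, which code for the 2 cytoplasmic actins and for proteins that store, nucleate, extend, cap, cut or anchor actin filaments. The arrays' annotation named 39 of them, out of 30142 genes in all. Of these, 36 had a probe that named no other gene, and all counts and tests below are over these 36. Actg1, Arpc1b and Twf1 were named only on probes that list another gene as well, and their signals are given apart. Actr2 and Arpc3 were not analysed here. The set was listed by name, but its members were chosen with earlier results of these data known. Its comparison with all genes is therefore not independent of these data. Where a gene had several probes of its own, the probe with the highest mean signal stood for it.

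RNA was measured on 6 Clariom D Mouse arrays, 3 of blood platelets and 3 of cells from the bone marrow that the labels call megakaryocyte progenitors. Both cell types had the same 3 treatments, PBS as the control, CTC41-EVs and CTC41.5G-EVs, with 1 array each. EVs usually stands for extracellular vesicles, membrane particles that cells release, and the labels do not explain the names CTC41 and CTC41.5G. The RNA on an array was a pool from several mice, so no group had a replicate. Strain, age and number of mice, as well as dose, route and timing, were not stated in the texts used. Per the labels' protocols the pools were used directly or after magnetic beads had taken out leukocytes and erythrocytes, and they do not say which pool had which handling.

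Actin is the main protein of the platelet's cytoskeleton. Monomers are held in reserve by thymosin and profilin, new filaments branch from old ones at the Arp2/3 complex, WASP and WAVE proteins switch that complex on, and cofilin and gelsolin cut filaments so that they can be rebuilt. This turnover is known to drive the change in shape when a platelet is activated, and megakaryocytes use the same machinery to release platelets into the blood.

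Signals are given as deposited, on a log2 scale where 1 unit is a 2-fold difference. Of 3 values in a row the first is always PBS, the second CTC41-EVs and the third CTC41.5G-EVs. Medians over all probes reached at most 4.05 for platelets and at least 4.38 for progenitors. Correlations over probes, which are no independent replicates, were 0.961 to 0.983 for arrays of one cell type and 0.823 to 0.838 for arrays of different ones. The cell types were compared with limma, with terms for cell type and treatment, over the 18875 genes whose mean reached a floor of 4.23, the median of all probes. A gene was called when its adjusted p was at most 0.05 (Benjamini-Hochberg over all genes tested) and the difference was at least 1.5-fold. Each cell type's 3 arrays differ in treatment, and the spread behind a p is what both terms leave over. That remainder is how unequal the treatment differences were between the cell types. In bulk RNA, fewer cells of a type and less RNA per cell cannot be told apart.

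Most of the actin dynamics genes stood higher in platelets than in the cells labelled megakaryocyte progenitors. Of 36 tested, 24 were called higher and none lower, while limma called 16.2% of all genes tested higher and 25.7% lower. The difference was at least 4-fold for 13 of the 36, or 12 where a level under the floor is set to the floor. The median difference of the 36 genes was 0.98, beside -0.26 for all genes tested. All 3 platelet arrays lay above all 3 progenitor arrays for 28 of the 36 and below them for 1, where the shares of all genes tested were 24.2% and 54.2%. The adjusted p of the called genes was at most 0.00397. These numbers depend on how the arrays are scaled to each other. As deposited, 3063 genes were called higher and 4854 lower, and setting the arrays level on 1083 olfactory receptor genes, which blood cells have little known use for, gave 7609 higher and 1033 lower. Under that centring 34 of the 36 actin genes were called higher and none lower, beside 40.3% of all genes higher.

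**Figure D1:**
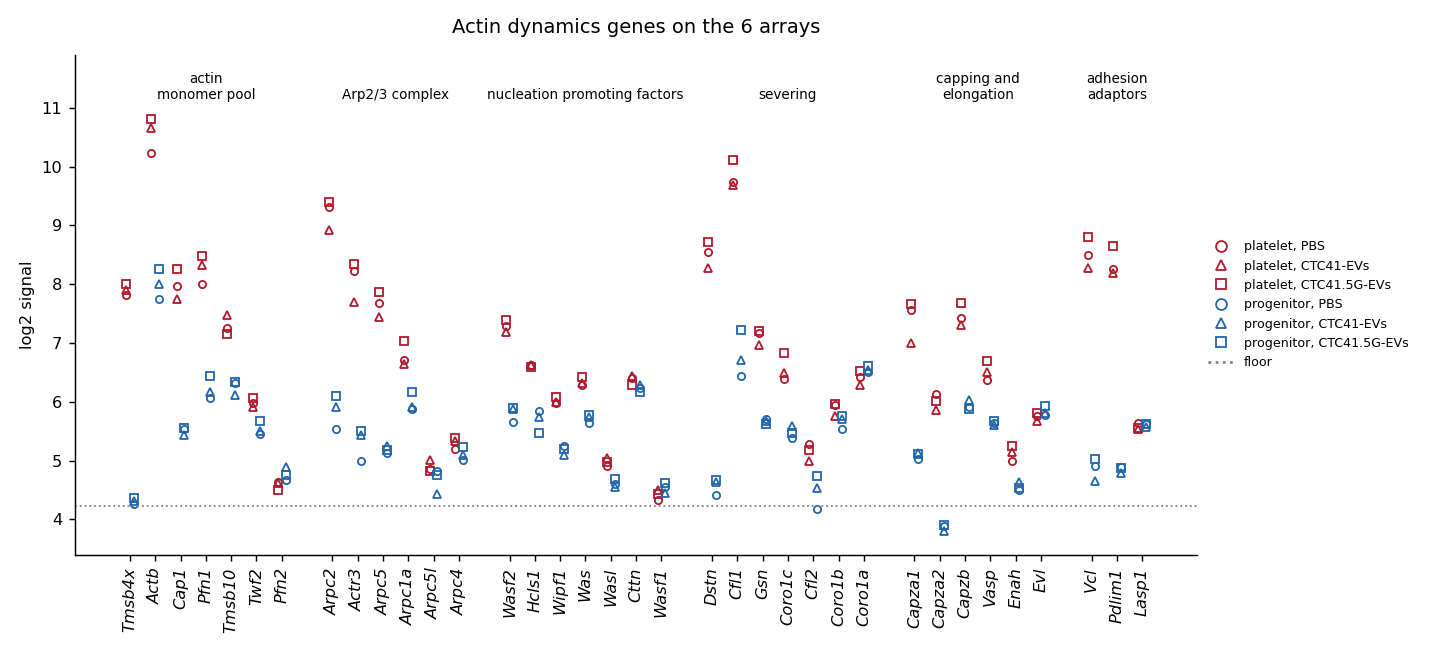
Log2 signal of the 36 actin dynamics genes on each of the 6 arrays, grouped by role and ordered within a role by the difference between the cell types. Each symbol is 1 array, red for platelets and blue for progenitors, and the dotted line is the floor of 4.23. Platelet arrays lie above progenitor arrays for 28 of the 36 genes, and signals of different genes cannot be compared in height.

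Among the actins and the proteins of the monomer pool, 5 of 7 tested genes rose in platelets. This count and those of the other roles below stand beside 16.2% of all genes tested that were called higher as deposited. Under quantile, median and olfactory receptor scaling that share was 21.9%, 24.8% and 40.3%, and each role holds few genes. Actb, which codes for beta-actin, read 10.23, 10.65 and 10.81 in platelets and 7.75, 8.0 and 8.26 in progenitors. The lowest platelet array was far above the highest progenitor array, and the difference was 2.56 (SE 0.19, 5.88-fold, adjusted p = 3.2e-05 in limma). Tmsb4x, thymosin beta-4, the main store of unpolymerised actin in platelets, read 7.82, 7.90 and 8.0 in platelets against 4.25, 4.31 and 4.37 in progenitors. Its arrays were even within each cell type, with SDs of 0.09 and 0.06, and the difference was 3.60 (SE 0.10, 12.1-fold, adjusted p = 1.93e-06). The progenitor arrays read just above the floor and under each array's own median over all probes. Background may therefore bound both the small SD there and the size of the difference. Cap1, cyclase-associated protein, which recycles monomers taken off by cofilin, read 7.97, 7.75 and 8.26 against 5.53, 5.43 and 5.55, a difference of 2.49 (SE 0.14).

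The profilins, which load monomers onto growing ends, differed from each other. Pfn1 read 8.0, 8.32 and 8.49 in platelets and 6.06, 6.16 and 6.43 in progenitors, and rose by 2.05 (SE 0.14, adjusted p = 2.08e-05). Pfn2, known mainly from neurons, read 4.63, 4.62 and 4.50 against 4.67, 4.89 and 4.76. It was the 1 gene of the 36 whose platelet arrays all lay below the progenitor arrays, and it was not called (-0.19, SE 0.09, adjusted p = 0.0859), and its sign was positive under each of the 3 other scalings. Twf2, twinfilin-2, which binds monomers and filament ends, averaged 5.98 ± 0.07 (SD, n = 3) on platelet arrays and 5.54 ± 0.12 on progenitor arrays. Its adjusted p was 0.00526, but the difference of 0.44 stayed under 1.5-fold as deposited, and it was called under the 3 other scalings (0.63, 0.81 and 1.15).

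Tmsb10, thymosin beta-10, gave different answers on its 2 probes. The probe that names it alone read 7.25, 7.48 and 7.15 in platelets and 6.32, 6.12 and 6.33 in progenitors, a difference of 1.03 (SE 0.15, adjusted p = 0.000716). The probe that also names Gm9844 read 8.90, 8.59 and 8.66 against 4.91, 5.33 and 5.76, a difference of 3.39 (SE 0.22). Both were called higher in platelets, so the direction was shared and the size was not.

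The genes named only on shared probes also read higher in platelets. When probes that name several genes were included, an alternative added after the data were seen, each was called higher. Actg1, gamma-actin, is named on 2 probes, one with the microRNA gene Mir6935 (9.46, 9.43 and 9.89 against 6.39, 6.75 and 7.23) and one with Gm12715 (10.43, 10.39 and 10.68 against 6.82, 7.33 and 7.41). Their differences were 2.80 and 3.32. The probe of Twf1, twinfilin-1, and Gm4887 differed by 4.40 (SE 0.12), or by 4.16 from the floor, since its progenitor mean was 3.99. The probe of Arpc1b and Gm5637 differed by 0.72 (SE 0.13). Counted in, these 3 genes made 27 of 39 called higher, beside 16.2% of the 20413 features tested with shared probes included. Which of the named genes gives the signal of a shared probe is not known.

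The Arp2/3 complex is built of the actin-related proteins Arp2 and Arp3 and of smaller ARPC subunits. Of its 6 tested genes 4 rose in platelets, beside 16.2% of all genes tested. Arpc2, a subunit at the core of the complex, read 9.32, 8.91 and 9.39 against 5.54, 5.91 and 6.10 and rose by 3.36 (SE 0.19, 10.2-fold, adjusted p = 9.08e-06). Actr3, which codes for Arp3, read 8.23, 7.70 and 8.35 against 5.00, 5.44 and 5.50 and rose by 2.78 (SE 0.19). In both genes the CTC41-EVs array was the lowest in platelets and the PBS array the lowest in progenitors. Arpc1a rose by 0.81 (SE 0.11, adjusted p = 0.000605). Arpc4 read 5.30 ± 0.10 (SD, n = 3) against 5.11 ± 0.11 and was not called as deposited (adjusted p = 0.0668). After centring on olfactory receptor genes it was called higher (0.91).

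Alternative subunits of the same position behaved unequally. Arpc5 read 7.67, 7.44 and 7.87 in platelets and 5.13, 5.24 and 5.17 in progenitors, and rose by 2.48 (SE 0.14, adjusted p = 8.64e-06). Its relative Arpc5l read 4.86, 5.01 and 4.83 against 4.82, 4.44 and 4.76. Those arrays nearly touch between the cell types, and the difference of 0.23 (SE 0.12, adjusted p = 0.128) was not called as deposited. Arpc5l was called higher with arrays centred on their median (0.60) and on olfactory receptor genes (0.94).

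Of the 7 genes that code for activators of the Arp2/3 complex or their partners, 4 rose, beside 16.2% of all genes tested. Wasf2, which codes for WAVE2, read 7.29, 7.19 and 7.39 against 5.66, 5.88 and 5.89 and rose by 1.48 (SE 0.13, adjusted p = 5.74e-05). Wasf1, for WAVE1, read 4.34, 4.50 and 4.44 against 4.55, 4.45 and 4.62, with arrays that overlap, and was not called (-0.11, SE 0.10, positive under the 3 other scalings). Was, the gene of the blood cell protein WASP whose loss causes Wiskott-Aldrich syndrome with small platelets, read 6.29, 6.32 and 6.43 against 5.64, 5.75 and 5.78. It rose by 0.63 (SE 0.10, 1.54-fold, adjusted p = 0.00123), which is just past the fold required. Its widely expressed relative Wasl, for N-WASP, read 4.90, 5.05 and 4.98 against 4.60, 4.55 and 4.68. Its difference of 0.37 (adjusted p = 0.0061) stayed under 1.5-fold as deposited and passed it under the 3 other scalings (0.72, 0.74 and 1.08).

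Wipf1, whose protein WIP binds and stabilises WASP, rose by 0.84 (SE 0.09, adjusted p = 0.00021). Hcls1, a cortactin relative of blood cells, read 6.63, 6.62 and 6.60 in platelets and 5.84, 5.74 and 5.47 in progenitors and rose by 0.93 (SE 0.12, adjusted p = 0.000374). Cttn, cortactin itself, read 6.41, 6.44 and 6.28 against 6.23, 6.28 and 6.16, and its difference of 0.15 was not called as deposited (adjusted p = 0.24). After centring on olfactory receptor genes it was called higher (0.87).

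Genes for filament cutting rose in 5 of 7 cases, beside 16.2% of all genes tested, and held the largest difference among the 36. Dstn, destrin, a relative of cofilin that severs filaments, read 8.54, 8.27 and 8.71 in platelets and 4.41, 4.64 and 4.67 in progenitors, a difference of 3.93 (SE 0.14, 15.3-fold, adjusted p = 2.13e-06). Cfl1, the cofilin of non-muscle cells, read 9.74, 9.69 and 10.12 against 6.44, 6.71 and 7.23 and rose by 3.06 (SE 0.18, adjusted p = 1.08e-05). Its progenitor arrays spread more than those of any other of the 36, with an SD of 0.40. Cfl2, the cofilin of muscle, stood at 5.15 ± 0.14 against 4.48 ± 0.29 and was called at 0.67 (SE 0.14, adjusted p = 0.00397). Without either PBS array its difference was 0.45 and no longer called. Gsn, gelsolin, a calcium-regulated severing protein, rose by 1.45 (SE 0.12).

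The coronins, which help to take branched filaments apart, split by gene. Coro1c read 6.38, 6.49 and 6.83 in platelets and 5.38, 5.59 and 5.48 in progenitors and rose by 1.08 (SE 0.12, adjusted p = 0.000245). Coro1a, abundant in leukocytes, read 6.42, 6.29 and 6.52 against 6.51, 6.53 and 6.60, and Coro1b read 5.95, 5.75 and 5.96 against 5.53, 5.71 and 5.75. The arrays of Coro1a overlapped between the cell types and those of Coro1b met at 5.75, and neither was called as deposited (adjusted p = 0.31 and 0.109). Coro1b was called higher with arrays centred on their median (0.60) and on olfactory receptor genes (0.94).

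Of 6 genes that act at filament ends 4 rose, among them all 3 tested genes of capping protein, beside 16.2% of all genes tested. Capza1 read 7.57, 7.01 and 7.66 against 5.03, 5.13 and 5.12 and rose by 2.31 (SE 0.16, adjusted p = 2.24e-05), while Capza2, the other alpha subunit, read 6.14, 5.86 and 6.01 against 3.88, 3.80 and 3.91 and rose by 2.14 (SE 0.08). Capza2 was the 1 gene of the 36 with a progenitor mean under the floor, so its size depends on background, and measured from the floor it was 1.78. Other progenitor means lay not far above the floor, such as those of Tmsb4x (4.31), Cfl2 (4.48) and Dstn (4.57). The sizes of their differences may depend on background as well. Capzb, the beta subunit, rose by 1.54 (SE 0.14). Vasp, a substrate of cyclic nucleotide kinases that is widely used to read platelet inhibition, lengthens filaments and read 6.37, 6.51 and 6.69 against 5.64, 5.60 and 5.66. It rose by 0.89 (SE 0.11, adjusted p = 0.000363). Of its relatives, Enah read 4.99, 5.15 and 5.25 against 4.49, 4.64 and 4.54 (0.57, adjusted p = 0.000795, 1.49-fold and so just under the fold required). Evl read 5.76, 5.67 and 5.80 against 5.78, 5.82 and 5.93 and was not called (adjusted p = 0.379).

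Of the 3 genes that tie filaments to adhesion sites, 2 were among the largest differences. Vcl, vinculin, read 8.49, 8.28 and 8.80 in platelets and 4.90, 4.65 and 5.02 in progenitors and rose by 3.67 (SE 0.12, 12.7-fold, adjusted p = 2.05e-06). Pdlim1, a PDZ and LIM domain protein that binds alpha-actinin, read 8.26, 8.19 and 8.66 against 4.90, 4.79 and 4.87 and rose by 3.52 (SE 0.14, 11.4-fold, adjusted p = 2.66e-06). Lasp1 read 5.64, 5.53 and 5.55 against 5.62, 5.56 and 5.62, values that overlap fully, and was not called (adjusted p = 0.777).

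**Figure D2:**
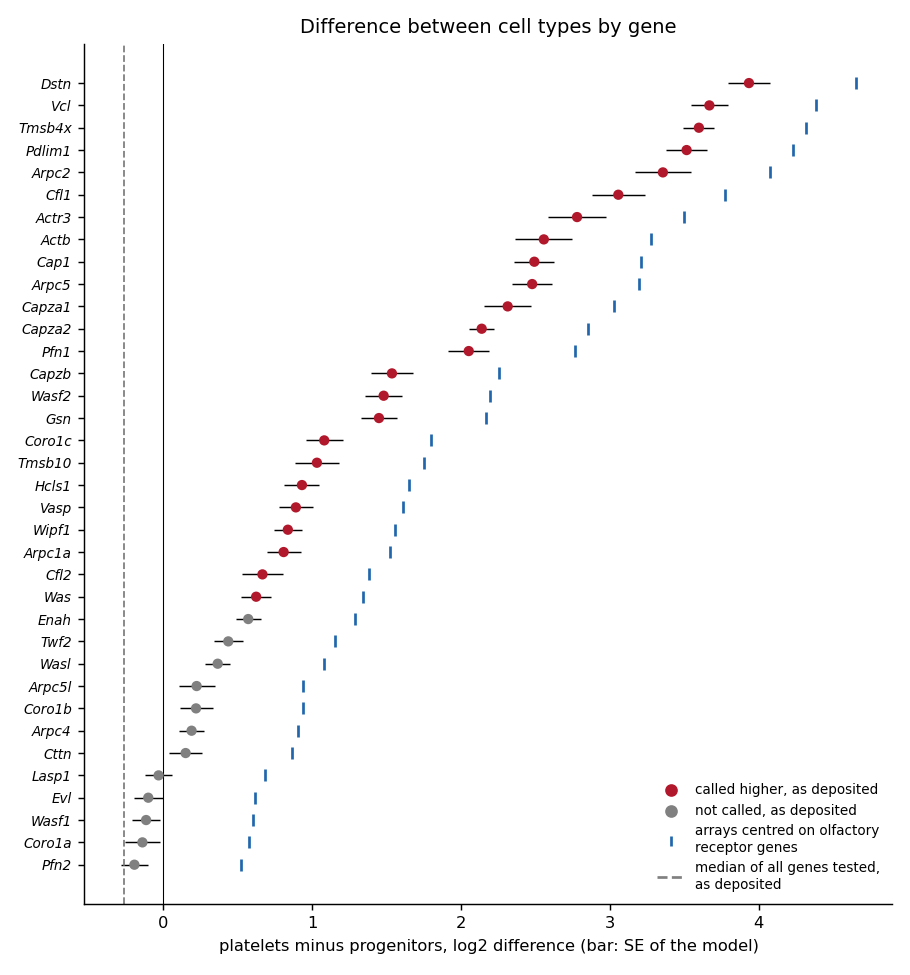
Log2 difference between platelets and progenitors for each gene, as deposited (dots, with the SE of the model as bars; red where called) and after centring on olfactory receptor genes (blue ticks). Called genes run from 0.63 for Was to 3.93 for Dstn, and the dashed line marks the median of all genes tested, -0.26. The 5 genes left of 0 turn positive under the other centring.

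Of the 12 genes not called, 7 had a positive and 5 a negative difference, and the negative signs of Pfn2, Coro1a, Wasf1, Evl and Lasp1 all turned positive when the arrays were centred on their median or on olfactory receptors, and all but that of Coro1a under quantile normalization. The ratio of related genes within an array does not change with the centring. For 12 ratios of relatives, chosen with the values above in view and therefore given without a test, every platelet array lay above every progenitor array on the probes that name 1 gene. Each ratio has the gene with the larger difference on top, so its direction was set by that choice. The same share over other gene pairs is not given here. The log2 ratio of Dstn to Cfl2 was higher in platelets by 3.27, with 3.02 to 3.62 over the 3 treatments. The ratio of Tmsb4x to Tmsb10 depended on the Tmsb10 probe, with 2.56 on its own probe and 0.21 on the probe shared with Gm9844, where the arrays of the cell types overlapped and 11 of the 12 ratios remained apart. The ratio of Cfl1 to Cfl2 was higher by 2.39, that of Arpc5 to Arpc5l by 2.25 and that of Pfn1 to Pfn2 by 2.24. On probes that name 1 gene the smallest of the 12 were Was over Wasl, at 0.26 with 0.08 to 0.35 over the treatments, and Vasp over Enah, at 0.32. A changed ratio shows that the signals of relatives differed unequally, and does not show that either stayed constant. Some partners read near the floor in both cell types, such as Pfn2 (means of 4.58 in platelets and 4.77 in progenitors) and Wasf1 (4.42 and 4.54). Background may hide a change in such genes, so these ratios cannot show that the RNA of relatives changed unequally. Other partners stood well above the floor, such as Coro1a (6.41 and 6.55) and Cttn (6.38 and 6.23).

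**Figure D3:**
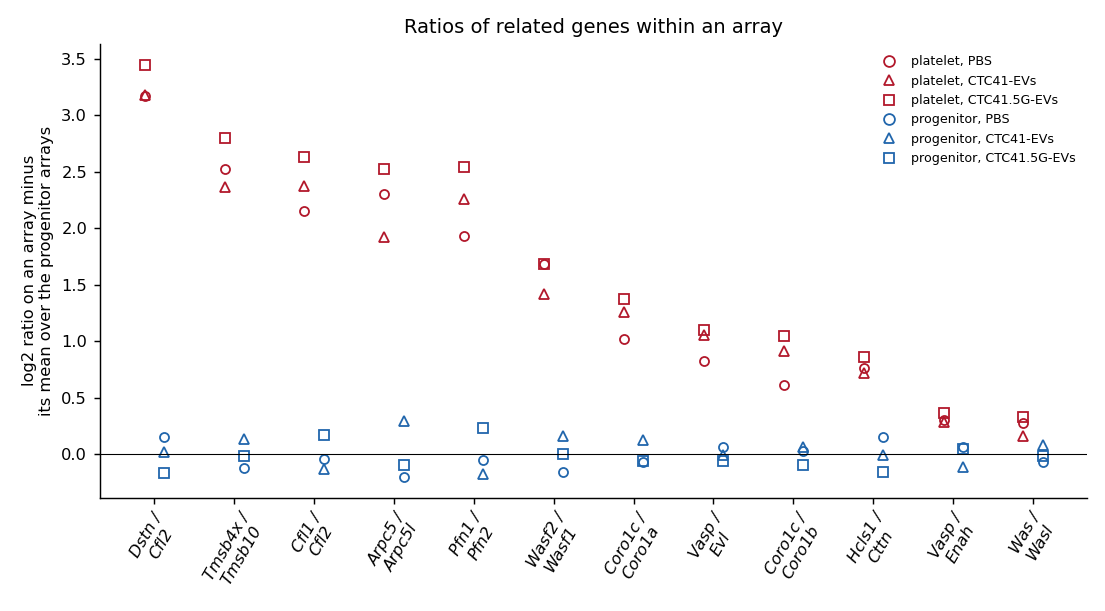
Log2 ratio of related genes on each array, less the mean of that ratio over the progenitor arrays, for 12 ratios. Each symbol is 1 array, red for platelets and blue for progenitors. On these probes the platelet arrays lie above the progenitor arrays in every ratio (for Tmsb4x over Tmsb10 not on the other Tmsb10 probe), by 3.27 on average for Dstn over Cfl2 and by 0.26 for Was over Wasl. Each ratio has the gene with the larger difference on top, which sets its direction.

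Actin genes are textbook targets of the serum response factor SRF, which binds the CArG box and works with MRTF cofactors that sense free actin. Promoters of RefSeq genes (GRCm38.p6), from 250 bases before to 50 bases after a gene's start, were searched on both strands for the CArG box and for AGATAA, the motif of blood cell GATA factors. A match to one cannot overlap a match to the other. The table held 36 of the 41 genes, not the same 36 as those tested. A CArG box lay in the promoters of 3 of them, Actg1, Arpc4 and Vcl, or 8.33%, beside 1.81% of all 27025 genes in the table. AGATAA lay in 1, Capza2, beside 12.7% of all genes. The CArG boxes are shown in capitals with up to 30 bases on each side, cut where the window begins, read 5′ to 3′ along the gene's strand, because Vcl and the Actg1 probes were far higher in platelets and Arpc4 was not.
Vcl, chr14:20929148-20929210, plus strand: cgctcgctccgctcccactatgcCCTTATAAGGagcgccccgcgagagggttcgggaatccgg
Actg1, chr11:120348546-120348615, minus strand: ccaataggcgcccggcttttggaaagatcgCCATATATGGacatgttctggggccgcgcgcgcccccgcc
Arpc4, chr6:113377863-113377902, plus strand: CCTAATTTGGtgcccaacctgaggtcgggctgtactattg
The boxes end 217, 80 and 240 bases before the start of Vcl, Actg1 and Arpc4. A match is a description of letters and not of binding. Of the 24 genes called higher, 23 were in the table and 1 held the box, and of the 12 not called, 8 were in it and 1 held the box. Srf, Mrtfa and Mrtfb themselves differed by 0.12, -0.35 and 0.10 between the cell types, and none was called. After centring on olfactory receptors Srf (0.84) and Mrtfb (0.81) were called higher, and Mrtfa had the opposite sign (0.37).

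Of the other genes of the actin pathway, 66 were tested from 7 lists of relatives and regulators. Limma called 19 of them higher and 4 lower, with a median difference of 0.06, beside 16.2% and 25.7% of all genes tested and a median of -0.26. Of 13 genes of the WAVE complex and WASP partners 4 rose, led by Nckap1 (3.55, SE 0.11), Abi2 (2.75, SE 0.11) and Abi1 (2.17, SE 0.10). Nckap1 lay under the floor in progenitors and was 2.78 from it. Its blood cell relative Nckap1l was not called at 0.48, but was under each of the 3 other scalings (0.78, 0.86 and 1.2). Of 7 formins, which grow straight filaments, Diaph1 (1.89, SE 0.12), Daam1 (1.86, SE 0.12) and Inf2 (1.80, SE 0.13) rose.

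Tropomyosins, which coat filaments, and adhesion adaptors were called higher in 7 of 14 cases, beside 16.2% of all genes tested. Tpm4 rose by 3.92 (SE 0.18), Zyx, zyxin, by 2.80 (SE 0.14) and Tln1, talin, by 1.89 (SE 0.14). Of 17 other capping, severing and monomer binding genes 4 rose and 2 fell. Tmod3, which caps pointed ends, rose by 3.55 (SE 0.15), Wdr1, a helper of cofilin, by 1.63 (SE 0.13) and Add3, an adducin, by 1.51 (SE 0.12). Those that fell were Coro7 (-0.74, SE 0.09) and the capping gene Capg (-0.66, SE 0.10). The list of cofilin kinases and phosphatases had 1 of 9 higher, Pak2 (0.61, SE 0.10), and 2 lower, the phosphatase genes Pdxp (-0.71, SE 0.11) and Ssh3 (-0.69, SE 0.11). None of these 4 lower calls held under any of the 3 other scalings, which called 25, 27 and 40 of the 66 genes higher with quantile, median and olfactory receptor scaling, beside 21.9%, 24.8% and 40.3% of all genes. None of 3 muscle actin genes was called as deposited, and 2, 2 and 3 were under those scalings.

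Markers were read on the same arrays to check the labels. Of 12 megakaryocyte and platelet markers on the arrays, all were called higher in platelets, with summed linear signals of 17878 to 25457 in platelets and 574 to 628 in progenitors. In progenitors 2 of them, Clec1b and P2ry12, lay under the floor. The others averaged from 4.91 (Gp5) to 6.51 (Itga2b) there, and Pf4, platelet factor 4, near the top of them, read 6.24 to 6.57. The neutrophil precursor genes Ngp (8.65 to 8.93) and Mpo (7.75 to 8.41) were also present there. These readings bear out the name megakaryocyte progenitors only in part, and it is used here as the labels' name. Markers of other cells moved with the comparison too. Of 12 neutrophil and precursor markers 11 were called lower in platelets, and their summed signals were 432 to 486 in platelets and 1817 to 2061 in progenitors. With the other scalings 7 to 10 of them were lower, and Cebpe was called higher after centring on olfactory receptor genes (0.81). Of 6 tested erythroid markers 3 were called higher, with sums of 1290 to 1400 against 258 to 270, and 4 under each of the 3 other scalings. For monocytes none of 5 tested was called, and of 5 B cell markers 2 were lower. Under the 3 other scalings no B cell marker was lower, and 2, 2 and 3 monocyte markers were higher. The T and NK cell and the stroma and endothelium lists each held 1 higher and 1 lower, of 8 and 7 tested. Neither lower call was left under the other scalings. Higher calls under them were 1, 1 and 3 for T and NK cell markers and 3, 3 and 4 for stroma and endothelium markers. Of 6 stem and progenitor markers 2 were lower as deposited. Under each of the 3 other scalings 1 of these was lower, and 1, 1 and 2 of the list were higher. Coro1a, Hcls1, Was and Evl are also expressed in leukocytes, and the part of other cells in the differences of the actin genes was not tested.

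Treatment was compared in 2 ways. Averaged over both cell types, limma called no gene in any of the 3 contrasts (0.0% of 18875), and so none of the 36. At an unadjusted p under 0.05 it listed 577 genes for CTC41-EVs against PBS, 1171 for CTC41.5G-EVs against PBS and 1157 for CTC41.5G-EVs against CTC41-EVs, among them none of the 36, then 2 (Cfl1 and Pfn1) and 1 (Vcl). The median differences of the 36 genes were 0.00, 0.14 and 0.12, beside 0.01, 0.06 and 0.04 for all genes. The largest for CTC41.5G-EVs against PBS were Cfl1 (0.58, SE 0.22), Actb (0.55, SE 0.23) and Pfn1 (0.43, SE 0.17), with adjusted p of 0.794, 0.795 and 0.794. Vcl differed by 0.45 (SE 0.15, adjusted p = 0.766) between the EV treatments.

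Within a cell type 1 array stood against 1 array, so there is no test and no replicate check. A gene was counted where it averaged at least 5.07 in that cell type, a level that 25% of probes exceed, which left 32 of the 36 in platelets and 25 in progenitors. In platelets the CTC41.5G-EVs array held the highest value for 26 of 32 genes, or 81.2%, beside 40.5% of all 8247 genes. With quantile, median and olfactory receptor scaling it was highest for 21, 26 and 23 of 34, beside 37.6%, 39.9% and 28.8% of all genes. The CTC41-EVs array held the lowest value for 20 of 32, or 62.5%, beside 47.3% of all genes. Under those scalings it was lowest for 17, 23 and 19 of 34, beside 38.9%, 53.5% and 36.6%. Between these arrays the median difference of the 32 genes was 0.19, beside 0.07 for all genes. It was at least 1.5-fold for 2 of them, beside 2.79% of all genes higher and 0.885% lower. These were Actr3, at 8.35 against 7.70, and Capza1, at 7.66 against 7.01, with differences of 0.65 each. Vcl (0.52), Cap1 (0.51), Arpc2 (0.48) and Pdlim1 (0.47) followed, under 1.5-fold. The 12 megakaryocyte and platelet markers had the CTC41.5G-EVs array highest for 12 of 12 and the CTC41-EVs array lowest for 10. With quantile normalization these were 10 and 5, with the PBS array lowest for 7, and the part of platelet content in the actin values was not tested.

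Against PBS, no actin gene reached 1.5-fold in platelets for CTC41-EVs, where 0.449% of all genes were higher and 2.34% lower, or for CTC41.5G-EVs, where these shares were 0.643% and 1.31%. Capza1 (-0.56), Actr3 (-0.53) and Arpc2 (-0.41) were lowest for CTC41-EVs, while Actb (0.42) and Pfn1 (0.32) were on the other side. For CTC41.5G-EVs the highest were Actb (0.58), Pfn1 (0.48) and Coro1c (0.45). The sign depended on the gene, and with arrays quantile-normalised Actb reached 0.73 for CTC41-EVs. Both comparisons share the PBS array.

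In progenitors 1 actin gene of 25 reached 1.5-fold, in CTC41.5G-EVs against PBS, where 5.47% of all genes were higher and 0.746% lower. It was Cfl1, which read 6.44 with PBS, 6.71 with CTC41-EVs and 7.23 with CTC41.5G-EVs, a difference of 0.78 (1.72-fold). Arpc2 (0.56), Actb (0.52) and Actr3 (0.50) followed, and Hcls1 was the lowest at -0.37. The median of the 25 genes was 0.10, beside 0.13 for all genes, so they did not stand apart from the array as a whole. In CTC41-EVs against PBS, where 3.09% of all genes were higher and 0.101% lower, no actin gene reached 1.5-fold, and Actr3 (0.44) and Arpc2 (0.37) were the highest. Between the EV arrays, where these shares were 0.608% and 0.783%, none did either. Actr3 and Arpc2 thus read lower with CTC41-EVs than with PBS in platelets and higher in progenitors, a difference between the cell types that was not tested.

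**Figure D4:**
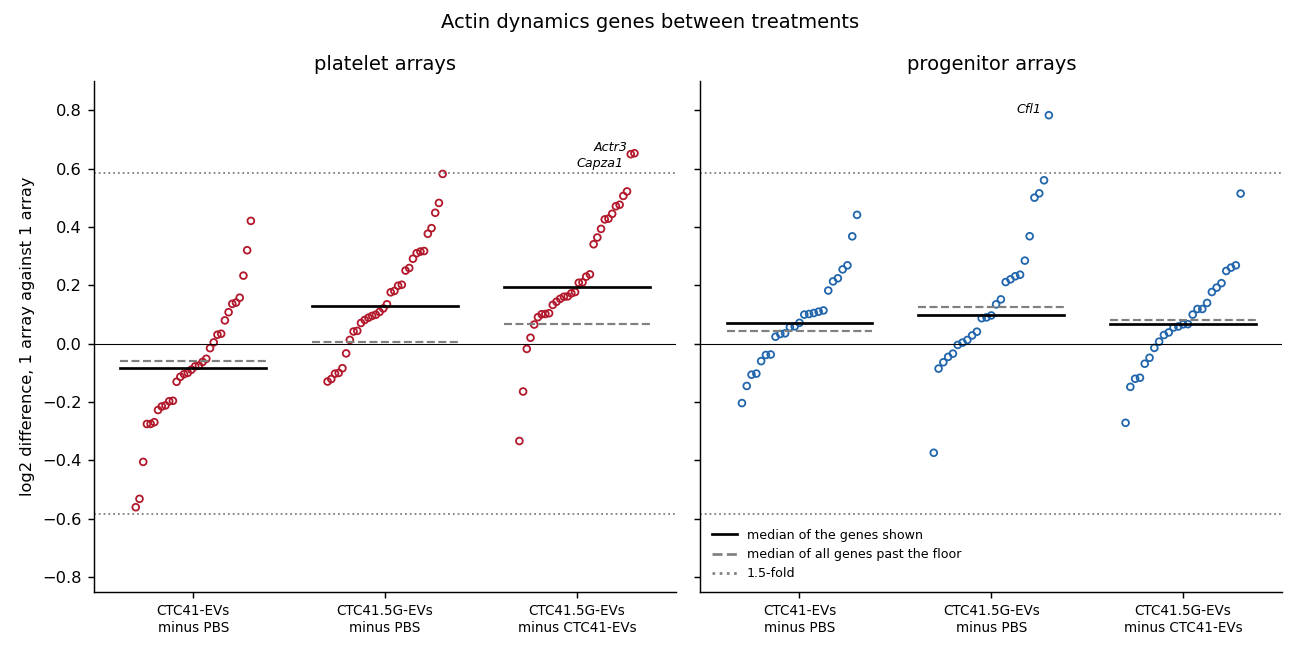
Log2 difference between 2 arrays of one cell type for each actin dynamics gene past the floor of 5.07, sorted within each comparison (32 genes in platelets, 25 in progenitors). Solid lines are medians of the genes shown, dashed lines medians of all genes past the floor, and dotted lines 1.5-fold. In platelets the solid line lies above the dashed line for CTC41.5G-EVs minus CTC41-EVs, at 0.19 against 0.07, and Actr3, Capza1 and Cfl1 are the genes past 1.5-fold.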

How the data were processed

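Values were the log2 signals per probe that the authors deposited for 6 arrays of pooled RNA. Affymetrix Expression Console 1.4.1.46 is the software in the submitters' processing notes, but the series' design text names MAS5.0, so how arrays were scaled to each other is unclear. No source used here names a genome build. Precision is limited by having 6 arrays.

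The array has 72688 probes, of which 30604 with 1 gene symbol were used, 2146 named several and 39938 none in the platform annotation. Symbols were updated by Entrez identifier where possible (827 changed), and the probe with the highest mean stood for a gene. limma 3.58.1 in R 4.3.3 fitted cell type plus treatment additively, leaving 2 residual degrees of freedom, with an intensity trend, on all genes past the floor, and was tested on simulated data. p-values rest on the departure from the additive fit, moderated by limma over all genes, and not on replicates. The members and lists were chosen with earlier results of these data known. All members are accounted for, and values on each array are given for Actb, the 10 largest differences, genes 1.5-fold apart between treatments and relatives of which 1 was called. Of each pathway list the 3 largest called genes are named, and 1 list is not reported here. Alternatives were the scaling, the floor, the trend, the treatment term, the probe rule, the fold and leaving out each array.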

Additional observations from a re-analysis of the deposited data

How the results depend on the processing

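The count of actin dynamics genes called higher in platelets was 27 with quantile normalization, 29 with arrays centred on their median, 34 with arrays centred on olfactory receptor genes, 22 of 29 with the floor at the 75th percentile, and 24 or 25 without 1 array. None was called lower in any of these. Of all genes tested, 21.9%, 24.8% and 40.3% were called higher under the 3 scalings, and 24.7% with the floor at the 75th percentile. Of 534 values of single genes under the alternatives, 510 stayed called with the same sign or stayed not called with either sign. A further 19 became called in their direction, 2 were lost and 3 turned and were called. Those 3, all with arrays centred on olfactory receptor genes, were Wasf1 (0.60), Evl (0.62) and Lasp1 (0.69). The 2 lost were Cfl2 without either PBS array. No gene had a second probe of its own, so taking each other probe by itself was not run. Enah, Twf2 and Wasl were called with every other scaling, and Enah also without either PBS or either CTC41-EVs array.

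Over all genes, 4673 were called higher and 1911 lower with arrays centred on their median, and 7609 and 1033 after centring on olfactory receptors. Quantile normalization gave 2282 lower, and the floor at the 75th percentile 2356, out of fewer genes tested. The median of all genes moved from -0.26 to 0.05, 0.11 and 0.45 with quantile, median and olfactory receptor scaling. For treatment averaged over cell types, limma called 0 to 2 genes lower for CTC41-EVs against PBS and for CTC41.5G-EVs against PBS without 1 array, and for CTC41.5G-EVs against CTC41-EVs 0 to 2 higher and 0 to 1 lower.

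Within platelets, quantile normalization left 0 genes past 1.5-fold between the EV arrays and put 1, Actb, higher for CTC41-EVs against PBS, while centring on the median put 1, Capza1, lower (-0.61). At 2-fold 0 genes remained in platelets between the EV arrays and 0 in progenitors for CTC41.5G-EVs against PBS. The number of genes highest on the progenitor CTC41.5G-EVs array was 16 of 25 as deposited (64.0%, beside 60.6% of all genes), and 8 of 21, 7 of 21 and 7 of 20 with the 3 other scalings (beside 42.0%, 44.3% and 41.4%). The number lowest on the progenitor PBS array was 16 of 25 (beside 53.8%) and 10 of 21 with quantile normalization (beside 36.3%). The cause was not tested. Array signals carry no depth, and values near the floor are bounded by background.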
